A study of Drosophila melanogaster with 14 samples.

Results

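Polyadenylated RNA of Drosophila melanogaster ovaries was compared between 1 library with a germline knockdown of cutoff (gene cuff; shCuff) and 1 library with a control hairpin (shWhite). These are 2 of the 14 samples of the series, of which 8 had processed files. Both came from ovaries of flies 3 to 14 days old that carried the driver P{GAL4::VP16-nos.UTR}CG6325MVD1. The shCuff flies carried the hairpin line TRiP.GL00054 in attP2, and the shWhite flies carried TRiP.HMS00017 in the same attP2 site, whose hairpin targets white, an eye pigment gene. Each group thus expressed a hairpin, and no flies without one were in this comparison. The driver acts through nos sequences in the germline, so the follicle cells and other somatic cells of the ovary were not its target. RNA was selected on oligo(dT) beads before library construction. The units described are 1-kb bins of the dm3 genome in which the mean of the 2 libraries was at least 1 RPKM (reads per kb of bin and per 1000000 library reads). Of 168744 bins, 18680 met that limit.

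Cutoff belongs, with Rhino and Deadlock, to a protein complex that sits on the chromatin of dual-strand piRNA clusters in germline nuclei. These clusters are heterochromatic loci full of transposon remnants, and their transcripts, copied from both strands, are processed into PIWI-interacting RNAs (piRNAs), which guide silencing of transposons. Cutoff is known for keeping cluster transcripts from being cleaved, polyadenylated and terminated like ordinary messenger RNA. Poly(A) selection sees messenger RNA and any cluster or transposon transcript that has been given a poly(A) tail. Pericentromeric scaffolds and unplaced sequence hold many transposon copies, while most genes lie on the 5 large arms (2L, 2R, 3L, 3R and X).

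The shWhite library held 8366673 reads and the shCuff library 10932667. A bin with 3 reads, taken here as the limit that a count of 0 allows, had 0.359 RPKM in shWhite and 0.274 in shCuff. The most abundant bin, in unplaced sequence (U, 5301001 to 5302000), took 10.4% of the shWhite reads and 10.05% of the shCuff reads. With 1 library a side there was no replicate and no test: ratios are given with a 95% exact conditional interval that covers counting error only. Fewer cells of a type and less RNA per cell cannot be told apart in these whole ovaries. The files name no genes, so neither the level of cuff nor markers of ovarian cells were analysed here.

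Most of the polyadenylated transcriptome was similar in the 2 libraries. The median change over the 18680 bins was 0.07 on the log2(RPKM + 1) scale, and the interquartile range ran from -0.17 to 0.33. A bin is called higher or lower here when log2(RPKM + 1) differed by at least 1, a 2-fold difference on that scale. By this rule 595 bins were higher in shCuff (3.19% of the bins) and 345 were lower (1.85%), or 940 in all (5.03%). All 940 had a counting interval of the ratio that excluded 1. A plain ratio of at least 2 with an interval excluding 1, which adds no pseudocount, held for 1075 bins that were higher (5.75%) and 575 that were lower (3.08%). The interval lay wholly beyond 2-fold for 299 higher bins (1.60% of all bins) and 214 lower bins (1.15%). Changes were mostly small, with a median size of 1.33 for higher and 1.42 for lower bins, while 37 higher and 29 lower bins moved by 3 or more.

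**Figure D1:**
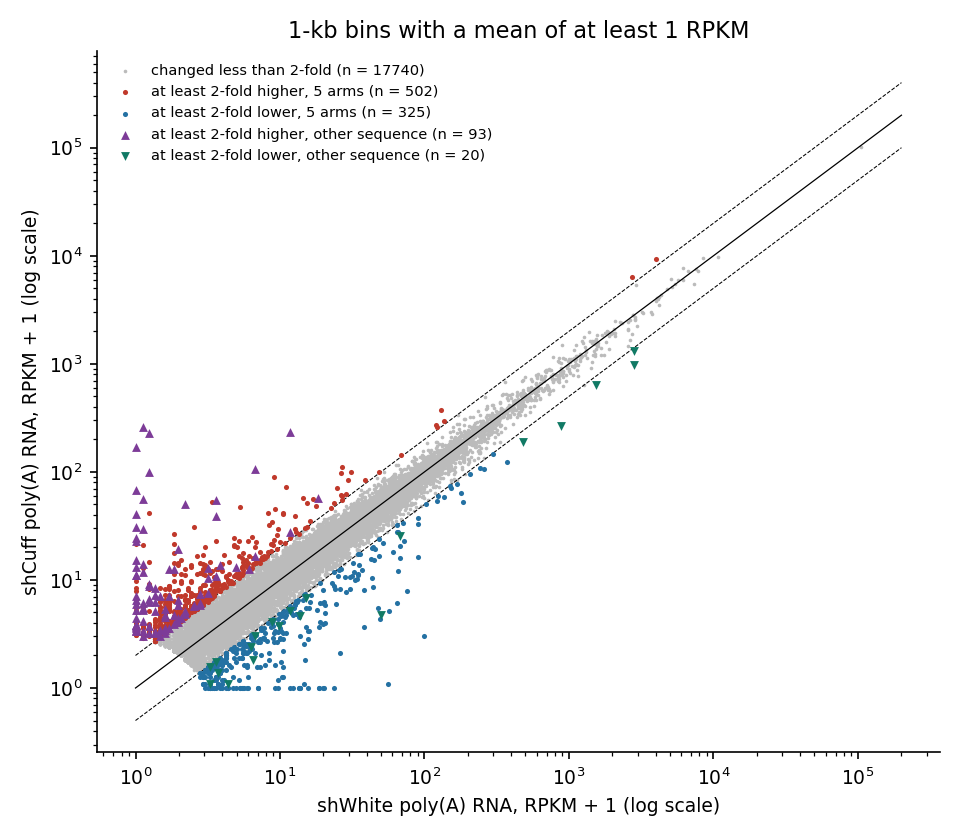
RPKM + 1 in shWhite (x axis) against shCuff (y axis) for the 18680 bins, both on log scales. Each point is a bin; the solid line marks equality and the dashed lines a 2-fold difference. The 595 higher bins include a column of points near 0 RPKM in shWhite that reach over 100 RPKM in shCuff, and the 345 lower bins include a row of points at 0 in shCuff.

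The count in each direction depended on which library let a bin through the filter. Of the 595 higher bins, 301 were below 1 RPKM in shWhite and passed only because shCuff was high, and 48 had no read in shWhite. Of the 345 lower bins, 132 were below 1 RPKM in shCuff, and 39 had no read there. Among bins with at least 1 RPKM in shWhite alone, 294 were higher and 411 lower. Among those with at least 1 RPKM in shCuff alone, 727 were higher and 213 lower. No excess of one direction can therefore be read from the totals. At the limit itself, a bin of X from 18255001 to 18256000, with 16 reads in shWhite and 1 in shCuff, was just inside, and a bin of 2R from 8457001 to 8458000, with 6 and 14 reads, was just outside.

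Weakly covered bins changed more often than strongly covered ones. From 1 to 2 RPKM, 5.39% of 3098 bins were higher and 2.61% lower. From 10 to 50 RPKM these shares were 1.36% and 1.19% of 5948 bins. At 50 RPKM or more, 18 of 2974 bins were higher (0.605%) and 24 lower (0.807%).

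Sequence outside the 5 arms differed from the arms in its share of changed bins. On the arms, 502 of 18292 bins were higher, or 2.74% (2.51 to 2.99, exact binomial interval), and 325 were lower, or 1.78% (1.59 to 1.98). On heterochromatic scaffolds and unplaced sequence combined, 86 of 246 bins were higher, or 35.0% (29.0 to 41.3), and 10 were lower, or 4.07% (1.97 to 7.35). These scaffolds held 1.32% of the bins and 14.5% of the higher bins. Much of this contrast rested on the filter: 66 of the 86 bins passed it only through shCuff, where they were high. With the filter on shWhite alone, 20 of 172 scaffold bins were higher (11.6%), against 1.53% on the arms, and 12 were lower (6.98%), against 2.18%. Intervals here treat adjacent bins as independent, which they are not.

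Unplaced sequence led this difference. Uextra, a collection of reads and contigs that could not be assigned to a chromosome, had 46 of 74 bins higher, or 62.2% (50.1 to 73.2), and 0 lower, which allows a share of up to 4.86%. Its median change was 1.23, against 0.08 on the arms. U had 17 of 42 bins higher, or 40.5% (25.6 to 56.7). The scaffold 3RHet had 10 of 27, or 37.0% (19.4 to 57.6), and 3LHet had 6 of 25, or 24.0% (9.36 to 45.1). On 2RHet 4 of 47 bins were higher, on XHet 2 of 22 and on 2LHet 1 of 9, shares whose intervals reach down to 2.37%, 1.12% and 0.281%. YHet had no bin at the limit, with 0 reads in shWhite and 1 in shCuff.

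**Figure D2:**
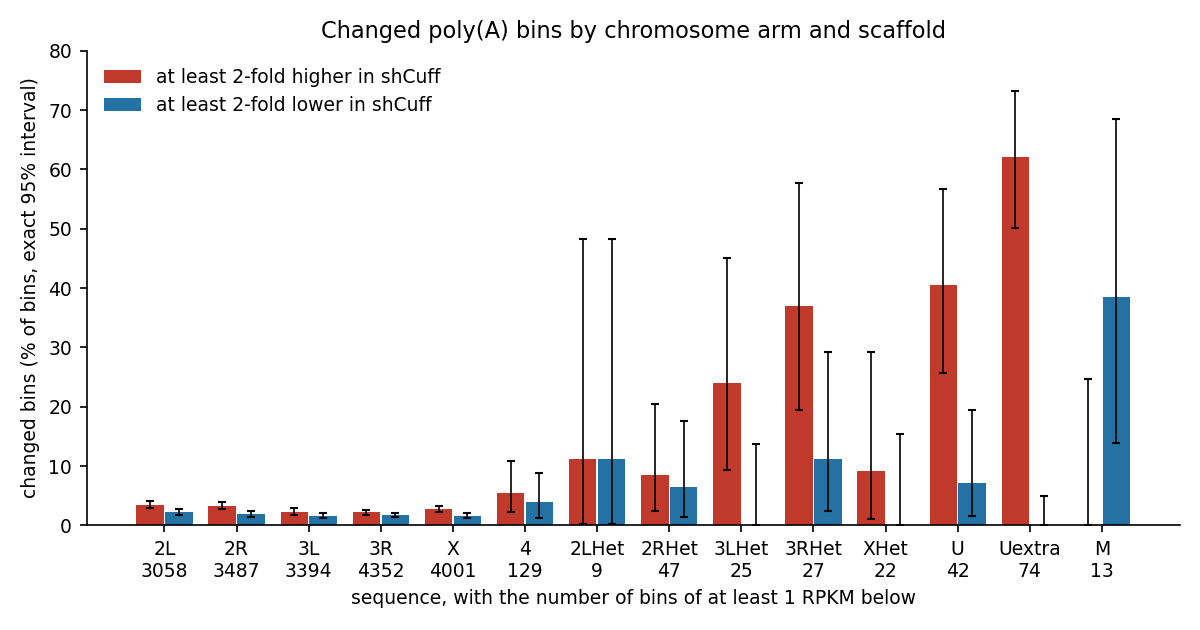
Share of bins of at least 1 RPKM that were at least 2-fold higher (red) or lower (blue) in shCuff, for each arm and scaffold; the number of bins is given under each name and the lines are exact 95% binomial intervals. The 5 arms stay between 1.56% and 3.47% in each direction, while Uextra reaches 62.2% and U 40.5% for higher bins.

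Many of these scaffold bins were nearly silent in shWhite, and 24 of the 86 higher ones had no read there. All 17 higher bins of U were below 1 RPKM in shWhite. Among the bins at the limit in which shWhite itself reached 1 RPKM, Uextra had 14 of 27 bins higher, 3RHet 4 of 21, 3LHet 1 of 19 and U 0 of 23. The share of higher bins on Uextra was thus large also among these bins, while that of U rested on bins that shCuff alone brought past the limit. These bins still had to pass the limit on the mean, so bins that fell below it in shCuff can be missing from the counts.

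Sums of all reads on a scaffold, per 1000000 library reads (RPM), need no limit on single bins. Uextra had 394 RPM in shWhite and 1523 in shCuff, a 3.87-fold ratio (3.72 to 4.01), or 6.53-fold without its most abundant bin. In the bins of Uextra not called, the ratio was 1.51 (1.44 to 1.58). 3RHet had 534 and 1004 RPM, a ratio of 1.88 (1.82 to 1.95), but 0.957 (0.916 to 1.00) in its bins not called. 2RHet had 1.33 (1.28 to 1.39), and 0.807 (0.771 to 0.845) without called bins. 3LHet, in contrast, had 0.857 (0.838 to 0.877) although 6 of its bins were higher. U had 0.938 (0.935 to 0.940), or 0.699 without its most abundant bin, 2LHet 0.757 (0.711 to 0.807) and XHet 0.999 (0.946 to 1.06). All heterochromatic and unplaced sequence together had 0.952 (0.949 to 0.954), with 971621 of its 1001134 shWhite reads on U. Scaffolds without U and Uextra had 1.10 (1.09 to 1.12). Called bins were chosen by this same difference, so the lower ratios of 3RHet and 2RHet without them are a description and no separate evidence. The 5 most abundant bins held 66.9% and 71.5% of the shCuff reads of 3RHet and 2RHet, but 88.6% of those of 3LHet.

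The largest differences in the genome lay in such bins. The Uextra bin from 1338001 to 1339000 had 1 read in shWhite and 2820 in shCuff, the latter 257.9 RPKM, a ratio of 2158 (387 to 85271). Its neighbour from 1337001 to 1338000 had 0 and 1851 reads, at least 472-fold higher. On 2RHet, the bin from 2266001 to 2267000 had 2 and 2488 reads, a ratio of 952 (263 to 7866). The first and the last of these were also among the 10 most abundant higher bins, although they were nearly silent in the control. Such long intervals come from the handful of shWhite reads, and their lower ends are the firmer statement.

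Bins of the same kind followed at lower levels. The Uextra bin from 4649001 to 4650000 went from 2 to 1089 reads, and that from 9061001 to 9062000 from 0 to 732, at least 187-fold higher. The Uextra bins from 23444001 to 23445000 and from 749001 to 750000 had 0 reads in shWhite and 432 and 325 in shCuff. On 3RHet, the bin from 836001 to 837000 went from 1 to 605 reads and that from 1257001 to 1258000 from 1 to 313. Of the 10 largest rises, 9 lay outside the arms. The exception was a bin of 2R, from 1106001 to 1107000, in the part of that arm near the centromere, which went from 2 to 447 reads, a ratio of 171 (47.1 to 1417).

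A different kind of bin on 3RHet was already expressed in shWhite. The bin from 641001 to 642000 had 90 reads in shWhite and 2524 in shCuff, or 10.8 and 231 RPKM, a ratio of 21.5 (17.4 to 26.8). The pair from 572001 to 574000 went from 70 to 1748 reads, a ratio of 19.1 with an upper bound of 24.6. With 90 and 70 reads in the control, these ratios have narrow counting intervals. Other scaffolds reached less: the largest rises were from 1 to 56 reads on 3LHet (666001 to 667000), from 18 to 129 on XHet (15001 to 16000), from 1 to 26 on 2LHet (255001 to 256000) and from 0 to 132 on U (7749001 to 7750000).

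Of the 246 scaffold bins, 10 were lower, with log2 changes from -1.58 to -1.08. The largest fall on 2LHet was from 89 to 45 reads (167001 to 168000), on 2RHet from 44 to 15 (203001 to 204000) and on 3RHet from 23 to 4 (1900001 to 1901000). In U, all 3 lower bins lay within 10 kb of its most abundant bin. The largest fall among them, from 5298001 to 5299000, was from 19 reads to 1, a ratio of 0.0403 (0.00097 to 0.253). The one with most reads, from 5294001 to 5295000, went from 23639 to 10678 reads, a ratio of 0.346 (0.338 to 0.354), while the most abundant bin itself went from 871307 to 1098700, a ratio of 0.965 (0.962 to 0.968).

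Chromosome 4 is the small autosome whose genes lie in heterochromatin-like chromatin. Its share of higher bins was nearer to that of the arms than to that of the scaffolds and unplaced sequence combined. Of its 129 bins, 7 were higher, or 5.43% (2.21 to 10.9), and 5 lower, or 3.88% (1.27 to 8.81). The first interval also holds the higher shares of 2RHet (8.51%) and XHet (9.09%). The median change of chromosome 4 was -0.14, against 0.08 on the arms and -0.09 on the scaffolds without U and Uextra. Its summed reads gave a ratio of 0.941 (0.930 to 0.953). The 12 changed bins were scattered, with a single adjacent pair, from 480001 to 482000, that was lower, with 180 reads in shWhite and 70 in shCuff. The 3 other lower bins had 22 and 8 reads (380001 to 381000), 65 and 34 (681001 to 682000) and 28 and 1 (1237001 to 1238000).

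The higher bins of chromosome 4 were weak. The largest rise, from 1299001 to 1300000, was from 6 to 67 reads, a ratio of 8.55 (3.73 to 24.1), and the bin from 1323001 to 1324000 went from 0 to 30, at least 7.65-fold. Both lie inside a dual-strand piRNA cluster of this chromosome, by cluster positions from background knowledge. The other 5 went from 22 to 107 reads (80001 to 81000), from 5 to 24 (582001 to 583000), from 3 to 25 (800001 to 801000), from 9 to 38 (983001 to 984000) and from 10 to 42 (990001 to 991000). Only the first of these 5 passed 5 RPKM in either library, and the bin starting at 582001 fell under the 2-fold limit with other scalings of the libraries (0.94 and 0.97).

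The mitochondrial genome, which encodes subunits of the respiratory chain and is transcribed as long precursors that are cut and polyadenylated, was lower in poly(A) RNA as a whole. Its level was 34340 RPM in shWhite and 28282 in shCuff, a ratio of 0.824 (0.819 to 0.828). The other comparisons went different ways, with ratios of 1.02 in total RNA replicate 1, 0.319 in replicate 2 and 1.38 in run-on. Of its 13 bins, 5 were lower and 0 higher. The bins from 10001 to 14000 formed an unbroken run, from 20788 to 9934 reads, a ratio of 0.366 (0.357 to 0.375), while in run-on its reads were 6078 in the control and 11854 in shCuff, a ratio of 1.89. The bin from 13001 to 14000 had the largest fall, from 407 to 41 reads. The fifth lower bin, from 4001 to 5000, went from 23684 to 14245 reads, a ratio of 0.460 (0.451 to 0.470), while the most abundant mitochondrial bin, from 1001 to 2000, went from 89744 to 105985, a ratio of 0.904 (0.896 to 0.912).

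Changed bins lay next to each other. Of the bins adjacent to a higher bin that reached the limit, 38.8% (240 of 618) were higher as well and 0.485% were lower. Beside a lower bin, 45.4% (186 of 410) were lower and 0.732% higher. Beside any bin of at least 1 RPKM these shares were 2.30% higher and 1.52% lower. Transcripts longer than 1 kb cover several bins, so neighbours share molecules.

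Runs of adjacent bins called in the same direction were counted. Higher bins formed 475 such stretches, of which 389 were single bins, 59 were pairs, 20 held 3 bins and 7 held 4. Lower bins formed 252 stretches, with 191 single bins, 40 pairs, 11 of 3 bins, 9 of 4 and 1 of 5. Runs of 2 or more bins took up 34.6% of the higher bins (206 in 86 runs) and 44.6% of the lower bins (154 in 61 runs).

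The arms held 97.9% of the bins at the limit and nearly all long runs, close to that share. All 27 higher runs of 3 or more bins were there, 7 of them on 2R, 6 on 3R, 5 each on 3L and X and 4 on 2L. Of the 21 lower runs of 3 or more bins, 20 were on the arms, 6 on 3R, 5 each on 2L and X, 3 on 3L and 1 on 2R, and the other was the mitochondrial run. Scaffolds held 14 higher runs, all of them pairs, with 4 each on 3RHet and U and 3 on Uextra. On 3RHet 8 of 10 higher bins stood in pairs and on Uextra 6 of 46. Chromosome 4 had 0 higher runs.

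The longest higher runs on the arms held 4 bins. The one on 3R from 11755001 to 11759000 had 1, 2, 4 and 5 reads per bin in shWhite and 23, 59, 50 and 79 in shCuff, a summed ratio of 13.5 (7.54 to 26.5). The 2 bins next to it on the right had 202 and 289 reads in shWhite and 264 and 363 in shCuff, at ratios of 1.00 and 0.961. The difference thus ended at a bin edge, beside well covered bins that were even. In run-on the run had 11 reads in the control and 37 in shCuff, a ratio of 3.27 (1.63 to 7.10).

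The run on 2L from 7430001 to 7434000 was better covered. Its bins had 139, 68, 12 and 36 reads in shWhite and 516, 966, 132 and 501 in shCuff, a ratio of 6.35 (5.57 to 7.26), while the bin before it had 147 and 204. On 3L, the run from 17023001 to 17027000 went from 47 to 358 reads, a ratio of 5.83 (4.29 to 8.08). The bin before it went from 548 to 477, a ratio of 0.666 (0.588 to 0.755). Run-on ratios were 1.06 (0.838 to 1.35) for this 2L run and 0.277 (0.0916 to 0.711) for this 3L run, the latter on 21 and 6 reads. In all, 12 of the 27 higher runs of 3 or more bins had an adjacent bin that passed the limit and was not called, and so did 12 of the 21 lower runs.

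Ratios of 3 other runs of 4 bins lay between 3.71 and 6.35. On 2R, the run from 21072001 to 21076000 went from 17 to 141 reads, a ratio of 6.35 (3.83 to 11.2), and on 3L that from 8431001 to 8435000 from 41 to 222, a ratio of 4.14 (2.96 to 5.93). On 3R, the run from 23361001 to 23365000 went from 147 to 712 reads, a ratio of 3.71 (3.10 to 4.46). Its flanks held 0 to 3 reads. In run-on the ratios of these 3 runs were 3.16 (1.77 to 5.92), 2.18 (1.81 to 2.64) and 0.677 (0.410 to 1.11), in the same order.

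A run of 4 bins on X that ends at 2688000 lies where background knowledge places white, the target of the control hairpin. Its bins had 112, 212, 215 and 9 reads in shWhite and 614, 1047, 1207 and 112 in shCuff, a ratio of 4.16 (3.80 to 4.57). The lower level belongs to the library with the hairpin against white, so an effect of that hairpin and one of the cuff knockdown cannot be told apart here. The run was higher in both total RNA pairs, with 255 and 876 reads and with 81 and 723. In run-on, where the control had no hairpin, it had 1632 reads in the control and 1082 in shCuff, a ratio of 0.644.

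Among higher runs of 3 or more bins, the largest ratio was on 2L from 22281001 to 22284000, in the part of the arm near the centromere. It had 1, 0 and 0 reads in shWhite and 217, 225 and 58 in shCuff, a summed ratio of 383 (68.4 to 15144). The bins on either side held 0 reads in shWhite and at most 10 in shCuff. It resembles the scaffold bins in being nearly silent in shWhite poly(A) RNA. In run-on it had 40 reads in the control and 261 in shCuff, a ratio of 6.33 (4.53 to 9.07).

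**Figure D3:**
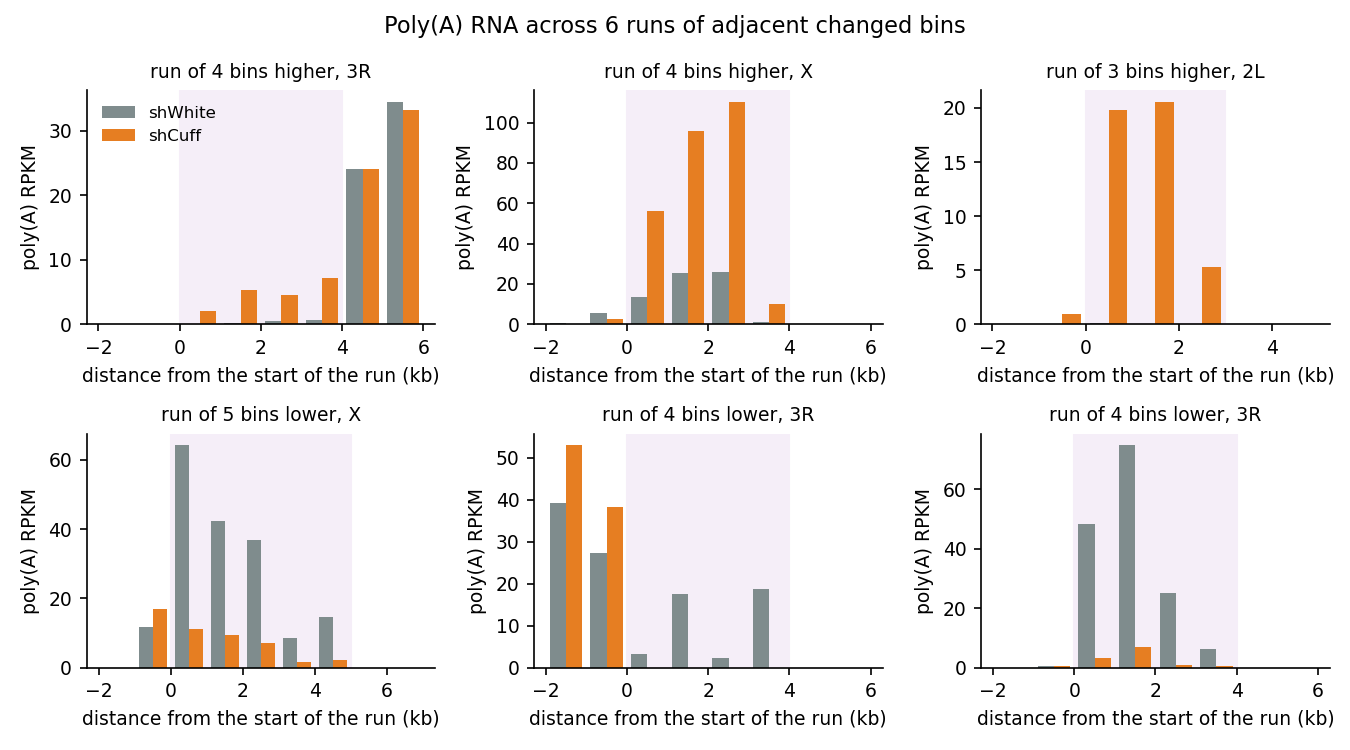
Poly(A) RPKM (y axis) per 1-kb bin in shWhite (grey) and shCuff (orange) across 3 higher runs (top) and 3 lower runs (bottom), with 2 bins on either side; the x axis is the distance from the start of the run in kb and the shaded part is the run. In the 3R run at top left the difference ends beside 2 bins with nearly equal bars, and the 3R run at bottom centre has no reads in shCuff.

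The longest lower run held 5 bins, on X from 10772001 to 10777000. Its bins had 537, 355, 309, 72 and 122 reads in shWhite and 121, 103, 77, 18 and 26 in shCuff, a summed ratio of 0.189 (0.168 to 0.213). The ratio was alike along the run, from 0.163 to 0.222 per bin, and the bin before it had 99 and 186 reads, a ratio of 1.44. Its total RNA reads were 663 and 75 in replicate 1, and 498 and 75 in replicate 2. In nuclear run-on, which labels the RNA of engaged polymerases, they were 693 and 122. It was thus lower in all 4 comparisons.

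Runs of 4 bins on 3R, 2L and X showed similar falls. The run on 3R from 3371001 to 3375000 had 403, 626, 209 and 52 reads in shWhite and 37, 76, 12 and 6 in shCuff, a ratio of 0.0777 (0.0644 to 0.0931). In run-on it went from 189 to 19 reads. The run on 3R from 3586001 to 3590000 went from 322 to 50 reads, a ratio of 0.119 (0.0864 to 0.160), and that on 2L from 20642001 to 20646000 from 313 to 54, a ratio of 0.132 (0.0970 to 0.177). For the 3R run starting at 3586001 the run-on reads were 26 in the control and 18 in shCuff. That ratio was 0.672 (0.347 to 1.27), an interval that includes 1. On 2L the run-on reads were 49 in the control and 61 in shCuff, so the lower level there was not seen in run-on.

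On X, the run from 5883001 to 5887000 went from 442 to 95 reads, a ratio of 0.164 (0.130 to 0.206), and the run from 1367001 to 1371000 from 428 to 180, a ratio of 0.322 (0.269 to 0.384). The bin after the latter had 800 and 915 reads, a ratio of 0.875. Run-on reads of these X runs were also lower, 164 and 33 for the first and 91 and 24 for the second.

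Another group of lower runs had no or almost no reads in shCuff. The run on 3R from 26312001 to 26316000 had 28, 147, 20 and 157 reads in shWhite and 0 in each bin in shCuff, at least 153-fold lower, while the bin before it had 229 and 417. Its total RNA reads were 109 and 0 in replicate 1, but 0 and 273 in replicate 2. The run on 3R from 25748001 to 25752000 went from 228 to 11 reads, and in total RNA from 57 to 2 and from 3 to 1396. These runs were absent or nearly so from 1 library of each pair, and the total RNA pairs went in opposite directions.

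The same held for all of the 10 largest falls in poly(A) RNA. The bin of 3L from 9634001 to 9635000 had 461 reads in shWhite and 1 in shCuff, a ratio of 0.00166 (4.2e-05 to 0.0093). Its total RNA reads were 170 and 2 in the replicate 1 pair but 5 and 292 in the replicate 2 pair. The bin of 2L from 4950001 to 4951000 had 820 and 22 poly(A) reads, then 271 and 5, and then 1 and 804. The other 8 bins had 106 to 190 poly(A) reads in shWhite and 0 in shCuff, 25 to 80 against at most 1 in the replicate 1 pair of total RNA, and at most 1 against 12 to 481 in the replicate 2 pair. In run-on these 8 held at most 14 reads per library.

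This pattern reached beyond the extremes. Of the 39 lower bins without a read in shCuff poly(A) RNA, 38 were lower in total RNA replicate 1, 31 were higher in replicate 2, and 32 had 0 reads in shWhite replicate 2. Over all 18680 bins these counts were 514, 2089 and 308. Among all 345 lower bins, 67 (19.4%) were at least 2-fold higher in total RNA replicate 2, against 11.2% of all bins. They were set apart after their values were seen. Summed over them, reads went from 8775 to 2200 in poly(A) RNA, from 2258 to 512 in total RNA replicate 1 and from 761 to 9496 in replicate 2. Of the 595 higher bins, 92 (15.5%) were at least 2-fold lower in that pair, a smaller share than the 27.4% of all bins. Leaving out these bins of both kinds left 503 higher and 278 lower bins, with 74 and 46 runs of 2 or more. What set these libraries apart was not tested.

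**Figure D4:**
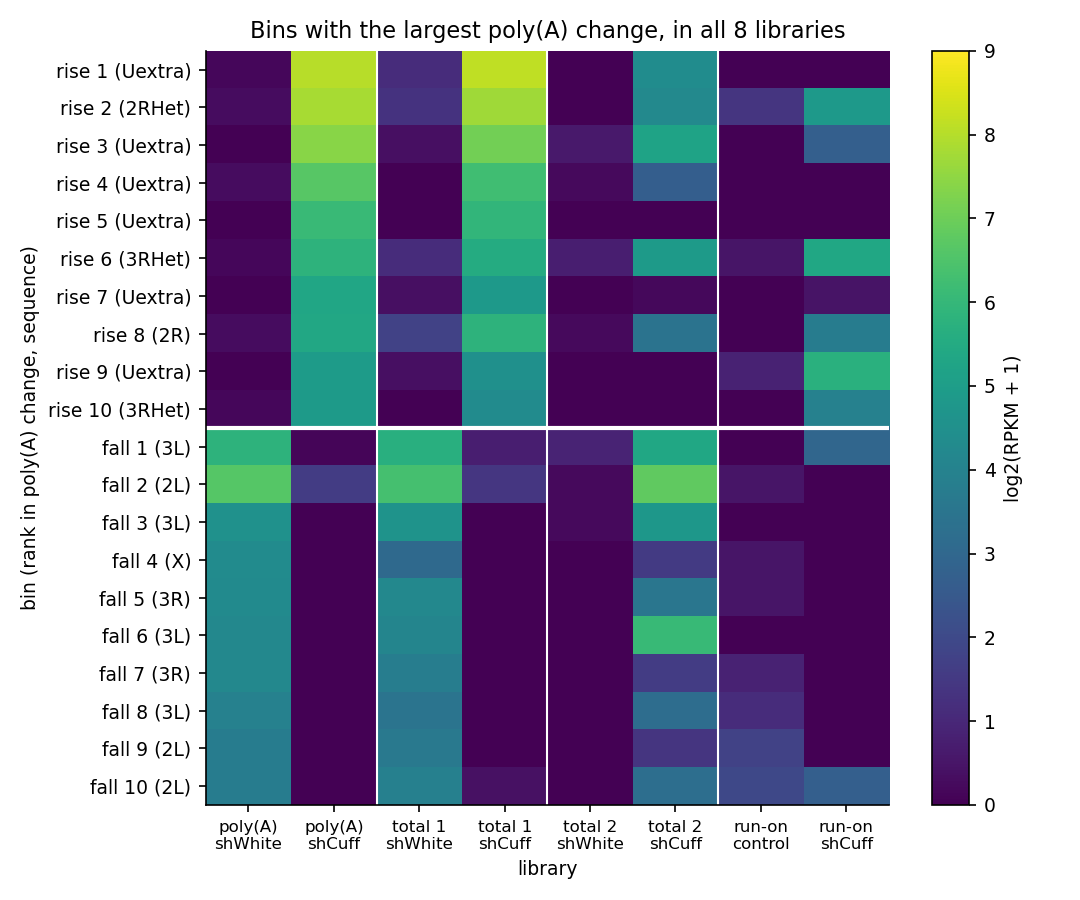
Level as log2(RPKM + 1), by colour, of the 10 bins with the largest rise and the 10 with the largest fall in poly(A) RNA (rows) in the 8 libraries (columns, in control and shCuff pairs). The rises are dark or nearly dark in every control library; the falls are bright in shWhite poly(A) and total RNA replicate 1 but dark in shWhite of replicate 2, where shCuff is the brighter.

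The bins that differed in poly(A) RNA were looked up in the other libraries of the series, which the choice of bins did not use. Total RNA was depleted of ribosomal RNA instead of selected, with the same genotypes in 2 pairs. Run-on had 1 shCuff library and a control with the same driver and no hairpin. Replicate 1 of total RNA carries the same title prefix (AC) as the poly(A) libraries, and the sources used here do not say whether they came from the same flies.

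Total RNA replicate 1 moved with poly(A) RNA. Of the 595 higher bins, 322 (54.1%) were at least 2-fold higher there and 11 lower, against 6.34% and 2.75% of all 18680 bins. Of the 345 lower bins, 189 (54.8%) were lower and 2 higher. The median changes were 1.08 and -1.13, against -0.01 over all bins.

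Total RNA replicate 2 moved with poly(A) RNA less closely, as did run-on for the higher bins. In replicate 2, 178 of the higher bins (29.9%) were higher and 92 (15.5%) lower, against 11.2% and 27.4% of all bins, and 130 of the lower bins (37.7%) were lower and 67 (19.4%) higher. In run-on, 164 of the higher bins (27.6%) were higher, against 9.23% of all bins, and 115 of the lower bins (33.3%) were lower, against 22.8%. In the opposite direction, 80 of the higher bins (13.4%) were lower in run-on and 47 of the lower bins (13.6%) were higher, against 22.8% and 9.23% of all bins. The medians of the higher and lower bins were 0.16 and -0.61 in replicate 2 and 0.06 and -0.34 in run-on. Over all bins, the median change was -0.33 in replicate 2 and -0.34 in run-on. The lower bins thus had the same run-on median as all bins. In all 3 comparisons, 48 of the higher bins were higher and 43 of the lower bins were lower, against 73 and 78 of all 18680.

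Scaffold bins differed from the arms in run-on. Of the 86 higher bins on heterochromatic and unplaced sequence, 47 (54.7%) were at least 2-fold higher in run-on, against 114 of 502 (22.7%) on the arms, and their medians were 1.45 and 0.00. In total RNA replicate 1 the shares were 72.1% and 50.8%, and in replicate 2 31.4% and 29.7%. Over all bins at the limit, called or not, scaffolds and arms had 29.3% and 6.02% higher in replicate 1. In replicate 2 these shares were 17.1% and 11.1%. On these scaffolds 32.9% of all 246 bins were higher in run-on, against 8.88% of those on the arms. In replicate 2, 39 of the 86 bins had no read in either library, and run-on had none in 23.

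**Figure D5:**
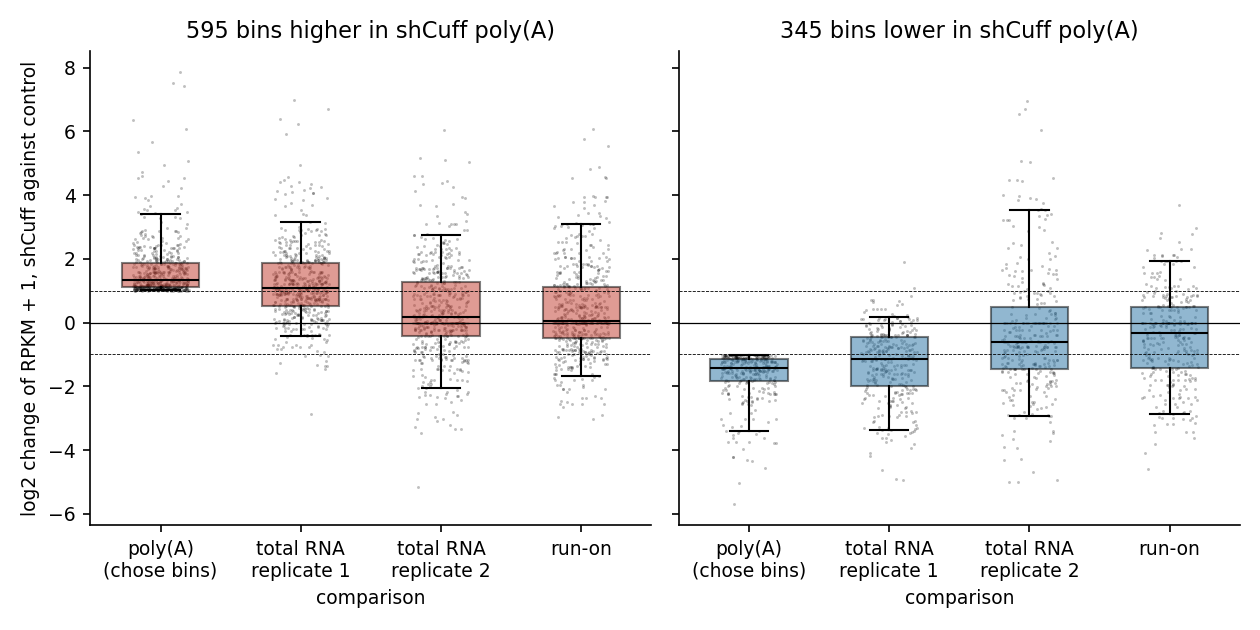
Change of log2(RPKM + 1), shCuff against control (y axis), of the 595 higher bins (left) and 345 lower bins (right) in poly(A) RNA, which chose them, and in total RNA replicates 1 and 2 and run-on. Points are bins, boxes span the interquartile range with the median, and whiskers run from the 5th to the 95th percentile; the replicate 2 and run-on boxes reach across 0 while those of replicate 1 do not.

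Single scaffold bins illustrate this. The 3RHet pair from 572001 to 574000 was higher in every comparison, with 14 and 261 reads in total RNA replicate 1, 9 and 652 in replicate 2 and 1 and 213 in run-on. The 2RHet bin from 2266001 had 5 and 614, 0 and 132, and 4 and 69. The Uextra pair from 1337001 to 1339000 had 5 and 1217 reads in replicate 1 and 3 and 411 in replicate 2, but only 0 and 14 in run-on. The Uextra bin from 9061001 had 0 and 174 reads in replicate 1 and none elsewhere. The deposited files of the second set of libraries (ES) carry a different code in their names, whose meaning was not given, and its part in this result was not tested.

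The 2 most abundant higher bins differed by little more than 2-fold. These bins, on 3L from 8721001 to 8723000, had 33508 and 22810 reads in shWhite and 101267 and 69674 in shCuff, or 4005 and 2726 against 9263 and 6373 RPKM. Their ratios were 2.31 (2.28 to 2.34) and 2.34 (2.30 to 2.37). Background knowledge places a cluster of chorion genes, which encode eggshell proteins made by follicle cells late in oogenesis, in this part of 3L, but the files do not annotate it. In total RNA the first of these bins went from 12306 to 23333 reads and from 50113 to 48255, a log2 change of 1.11 and of -0.42, so that the difference was not seen in replicate 2.

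Of the other 8 of the 10 most abundant higher bins, 3 were the scaffold bins on Uextra, 2RHet and 3RHet described above and 5 lay on the arms, with ratios from 2.13 to 2.90. The bin of X from 19108001 to 19109000 went from 1078 to 4088 reads, a ratio of 2.90 (2.71 to 3.11), and was higher in both total RNA pairs (234 to 582 and 76 to 1071 reads). On 3R, the bins starting at 21510001, 9610001, 27421001 and 26212001 had ratios of 2.17, 2.25, 2.15 and 2.13. Their total RNA changes were under 1 on the log2 scale in replicate 1, from 0.51 to 0.97. In replicate 2 they were 0.21, -0.18, 0.23 and -1.28 in the same order, the last of them over 2-fold the other way (476 and 249 reads).

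Abundant lower bins outside the mitochondrial genome and U had 1720 to 3130 reads in shWhite. The bin of 3L from 9502001 to 9503000 went from 3130 to 1349 reads, a ratio of 0.330 (0.309 to 0.352), and that of 3L from 9375001 to 9376000 from 2155 to 1160, a ratio of 0.412 (0.383 to 0.443). The bin of 2R from 15331001 to 15332000 went from 2495 to 1578 and that of 2L from 1724001 to 1725000 from 1720 to 1040. The bin of 3R from 6683001 to 6684000 went from 2018 to 1178 reads, and of these 5 it was the only one past 2-fold lower in both total RNA pairs (1255 to 368 and 814 to 422).

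Pooled over the 5 arms, the shares of changed bins at the ends were near those in between. In the 1 Mb of each arm nearest to the centromere, 11 of 341 bins were higher (3.23%) and 8 lower (2.35%). In the 1 Mb at the telomeric ends, 24 of 777 were higher (3.09%) and 13 lower (1.67%), and in between the shares were 2.72% and 1.77% of 17174. Single arms departed from this on few bins. Near the centromere of X, 5 of 60 bins were lower (8.33%, against 1.59% in the middle of the arm). These lay in 2 runs, from 21424001 to 21426000 and from 21849001 to 21852000. Near the centromere of 2L, 4 of 62 bins were higher (6.45%, against 3.53%), and at the telomeric end of 2R 9 of 155 (5.81%, against 3.22%). The 2L bins included the run of 3 from 22281001 to 22284000. The 2R bins included the runs from 21072001 to 21076000 and from 21141001 to 21143000. Bins of a run are not independent, so these shares rest on fewer separate places than bins. By arm, higher bins ran from 2.18% on 3R (1.77 to 2.66) to 3.47% on 2L (2.85 to 4.18), and lower bins from 1.56% on 3L to 2.19% on 2L.

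The largest rises on the arms outside 2R were in bins that were nearly silent in the control on 2L and 3R and weakly expressed on 3L and X, with 2.39 and 1.55 RPKM. On 2L it was the bin from 22282001 to 22283000, with 0 and 225 reads, and on 3R the bin from 3094001 to 3095000, with 2 and 148. On 3L the bin from 14265001 to 14266000 went from 20 to 565 reads, a ratio of 21.6 (13.9 to 35.7), and in total RNA from 3 to 68 and from 40 to 3855. On X the bin from 18283001 to 18284000 went from 13 to 325 reads, a ratio of 19.1 with an upper bound of 36.3, and from 14 to 174 in total RNA replicate 1, but from 56 to 17 in replicate 2.

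The piRNA clusters held few bins at the limit, and their polyadenylated reads were sparse, for a reason that was not tested. The 7 clusters were looked up by dm3 positions from background knowledge. By the same knowledge 20A and flamenco are uni-strand clusters and the others dual-strand clusters. Of the 7, 38C_a, 38C_b, 80F and flamenco had 0 bins at the limit, 42AB had 3 of 243, 20A had 7 of 40 and the cluster on chromosome 4 had 4 of 91. In 42AB both libraries had 324 reads, a ratio of 0.765 (0.654 to 0.895), or 0.244 (0.193 to 0.306) without its most abundant bin, and the number of bins with any read went from 103 in shWhite to 29 in shCuff. Its 3 bins at the limit included 1 lower, from 2213001 to 2214000, with 18 and 0 reads, and 2 higher, from 2185001 to 2186000, with 0 and 46, and from 2359001 to 2360000, with 7 and 223. In 20A, 2 of the 7 bins were lower and 0 higher, and the summed ratio was 0.579 (0.505 to 0.664). The cluster on chromosome 4 had reads in 9 bins in shWhite and 21 in shCuff, and 2 of its 4 bins were higher. Its summed ratio was 4.05 (2.93 to 5.70). Summed ratios were 0.606 (0.385 to 0.947) for flamenco, 0.219 (0.0722 to 0.560) for 38C_a, 0.922 (0.606 to 1.41) for 38C_b and 0.638 (0.408 to 0.991) for 80F. These 4 held 6 to 53 reads per library. Over all 18680 bins, 3.19% were higher and 1.85% lower. The shares among cluster bins cannot be set against these. Each changed bin of 42AB and of the chromosome 4 cluster passed the limit only through the library where it was high. Cluster bins at the limit were also few, and the 2 lower bins of 20A were adjacent.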

How the data were processed

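The authors deposited 1 table per library with the dm3 genome in 1-kb bins. Column 6 held the count of reads per bin, raw and whole in the poly(A) files and in total RNA replicate 1, per the file values; in the other 4 deposited files a few bins were not whole, so these estimated counts were rounded. Column 5 held the authors' RPKM, which equals count over bin length and total. Reads were handled with Bowtie 0.12.7 and cutadapt on dm3, per the submitters' processing notes; how reads were filtered and repeats placed is not stated there. Counts carry no strand.

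Bins whose mean reached 1 RPKM were compared on log2(RPKM + 1), with a limit of 1. Ratios of RPM had 95% exact conditional (Clopper-Pearson) intervals; folds against 0 reads used 3 reads. Intervals cover counting error only. Python 3.11.15, scipy 1.17.1 and edgeR 4.0.16 (TMM factors only) were used, and the calls were tested on simulated data. Bins named are the 10 largest changes and 10 most abundant changed bins per direction, the 8 longest runs per direction, the largest change per sequence, all changed bins of chromosome 4 and fixed loci. The set of bins and loci was chosen with earlier results of these data known. Others, such as scaffold pairs, were chosen after their values were seen. Cluster and gene positions came from background knowledge. A dm3 genome or annotation was not used here.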

Additional observations from a re-analysis of the deposited data

How the results depend on the processing

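No paired analysis was possible because each group had 1 library, and for the same reason no library could be left out. The count of higher and lower bins was 1198 and 610 with a pseudocount of 0.1, 1075 and 575 (5.75% and 3.08% of bins) for a 2-fold ratio with an interval excluding 1, 299 and 214 for an interval wholly beyond 2-fold, 207 and 166 at a mean of at least 5 RPKM, and 1979 and 1139 or 124 and 72 with fold limits of 1.5 or 4. With a filter on shWhite alone 294 were higher, and with one on shCuff alone 213 were lower. TMM factors gave 531 and 384 and the median of ratios 492 and 391, so the higher share of changed bins went from 63.3% to 58.0% and 55.7%. No filter, and totals without the most abundant bin, stayed within 1.5 times.

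On the arms the share of higher bins was 5.92% (pseudocount 0.1), 1.25% (interval beyond 2-fold), 1.48% (at least 5 RPKM), 2.22% (median of ratios), 1.53% (filter on shWhite), 3.22% (filter on shCuff) and 2.26% (without bins opposite in total RNA replicate 2). In the same order the lower share was 3.17%, 1.09%, 1.32%, 2.03%, 2.18%, 1.06% and 1.42%. On heterochromatic and unplaced sequence the higher share was 42.3%, 27.2% and, with the filter on shWhite, 11.6%. The filters on 1 library and the removal of opposite bins were chosen after seeing the data.

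Runs of 2 or more bins numbered 308 higher and 165 lower with a fold limit of 1.5, 161 higher with a pseudocount of 0.1, and 30 and 30 at 5 RPKM. Runs of 3 or more were 73 and 41 at 1.5-fold and 7 and 8 at 5 RPKM. With the median of ratios the summed ratio was 0.888 for chromosome 4, 1.77 for 3RHet, 0.885 for U, 3.65 for Uextra and 0.777 for the mitochondrial genome. Without the most abundant bin it was 0.874, 1.48, 0.699, 6.53 and 0.787 in that order, and 0.244 for 42AB. Totals without the most abundant bin gave 0.934 for U. The cause of these moves was not tested, apart from fewer bins under stricter limits. Of 65 named bins none changed direction under another pseudocount or scaling, and the bins at 3R 26212001 (0.99) and chromosome 4 582001 dropped under the limit.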
